A study of Drosophila melanogaster with 3 samples.

Results

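Mef2 (FBgn0011656) lies on the minus strand of arm 2R, from 9913496 to 9958858 on the dm6 genome, and binding of Tinman was examined in its gene body and 10 kb to either side, from 9903496 to 9968858. Members were the entries of 5 deposited lists whose summit fell in this window. They numbered 6 of 5508 peaks in the list that passed an irreproducible discovery rate threshold (IDR peaks), 25 of 30000 entries in the pooled list, 29 of 30000 in replicate 1, 22 of 30000 in replicate 2 and 17 of 24711 in replicate 3. The samples were 3 biological replicates of 1 group, whole Drosophila melanogaster embryos of both sexes aged 0 to 16 h from a line with a stable insertion of tin fused at its C terminus to GFP. Chromatin was sonicated to 200 to 800 bp and precipitated with an anti-GFP antibody according to the sample description, while the field for the antibody lists tin. There was no second condition, and no precipitation from embryos without the fusion protein was analysed here. In whole embryos, strong binding in few cells and weak binding in many cannot be told apart.

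Mef2 encodes the MADS-box transcription factor that Drosophila muscle precursors of all kinds need to differentiate. In the mesoderm its transcription is started by Twist, a bHLH factor, and in the dorsal mesoderm and heart it is activated by Tinman, the NK-2 homeodomain factor tagged here. A heart enhancer that depends on a pair of Tinman sites, and enhancers that depend on Twist, have been described upstream of the promoter used by most transcripts, and Mef2 also acts on its own enhancers. The published coordinates of these enhancers were not used here.

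The annotation gives 11 Mef2 transcripts from 3 transcription start sites (TSSs). The proximal TSS, at 9929615, starts 8 of them, the middle TSS, 15149 bp farther upstream at 9944764, starts 1 (Mef2-RG), and the distal TSS, another 14094 bp upstream at 9958858, starts 2 (Mef2-RF and Mef2-RH). Sequence upstream of the proximal TSS is therefore also intronic or 5' UTR sequence of the longer transcripts. Of the 25 pooled entries, 17 had their summit in the Mef2 body, 15 of them in an intron and 2 in the 5' UTR. Upstream of the distal TSS the window holds Pdrg1, which encodes a prefoldin-like protein, Pal1, which encodes a peptide-amidating lyase, CG1418 and CG12133. Downstream of Mef2 it holds Etf-QO, an electron transfer flavoprotein oxidoreductase gene, and the neuropeptide gene FMRFa.

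Pooled entries were spread over the gene upstream of the proximal TSS and both flanks, and absent from the gene body downstream of it. The 15149 bp between the proximal and middle TSSs held 10 pooled entries, 2 of them IDR peaks, and the 14094 bp between the middle and distal TSSs held 7, also with 2 IDR peaks. Each 10 kb flank held 4 pooled entries and 1 IDR peak. The 16120 bp of the gene body below the proximal TSS held 0 pooled entries, with 1 entry in replicate 1, 1 in replicate 2 and 0 in replicate 3. Neighbouring pooled summits were at most 17867 bp apart, and that widest gap spans this stretch. Over the window the density was 3.82 pooled entries and 0.918 IDR peaks per 10 kb, against 2.24 and 0.411 over the 6 chromosome arms. IDR peaks made up 24.0% of the pooled entries at Mef2 (exact binomial 95% interval 9.36 to 45.1), against a background of 18.4% of all pooled entries, which lies inside this interval. The interval covers counting error only.

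**Figure D1:**
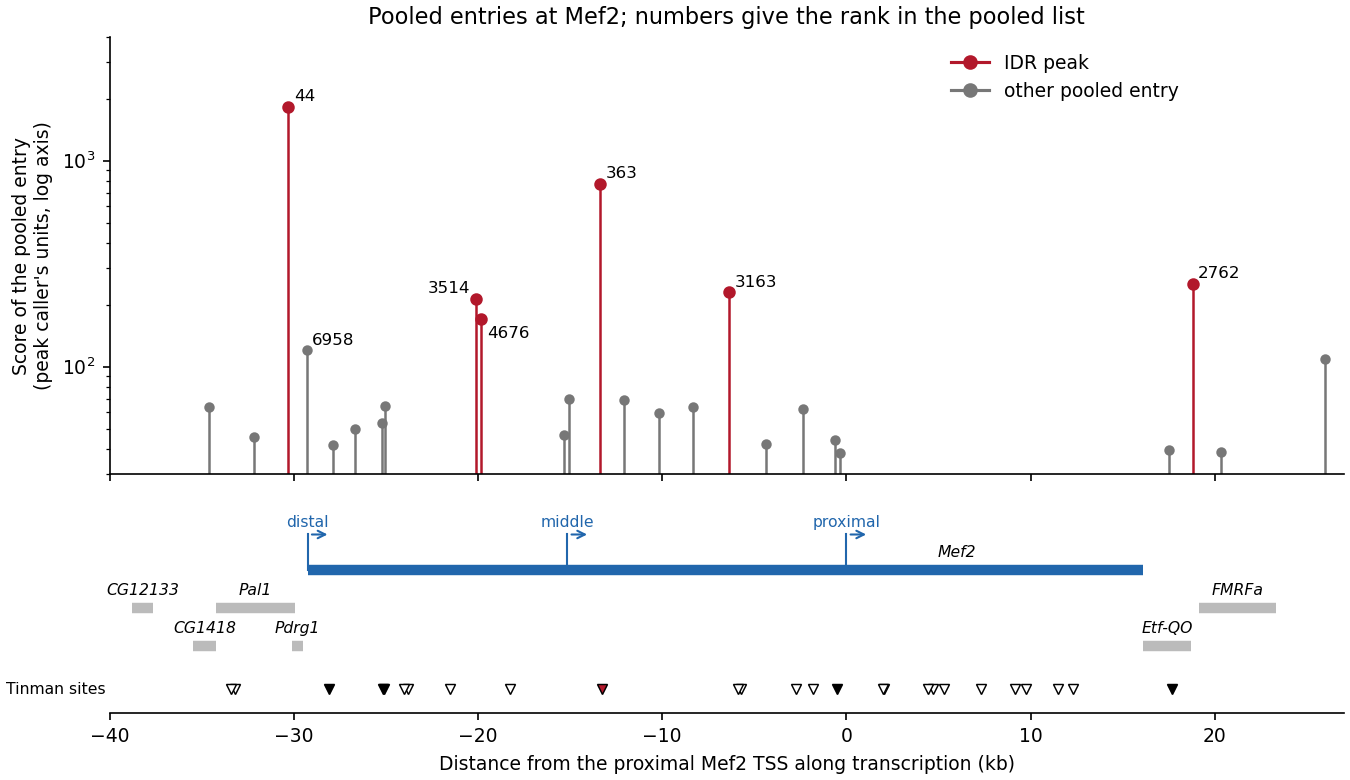
Score of each pooled entry (log axis) by the distance of its summit from the proximal Mef2 TSS along transcription, with IDR peaks in red and other pooled entries in grey, and ranks in the pooled list printed at the 6 IDR peaks and at the next entry. Below are gene bodies, the 3 Mef2 TSSs (arrows) and 26 Tinman sites (triangles). Triangles are filled where a pooled entry covers the site, and red where an IDR peak does. The stretch of the Mef2 body downstream of the proximal TSS holds 10 sites and no pooled entry.

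The strongest entry lay outside the gene, upstream of the distal TSS and closer to the promoters of its neighbours. On 2R from 9959665 to 9960144, it had a score of 1828 in the pooled list, which is rank 44, or 0.147% of the list. Its score was 563 in replicate 1, 590 in replicate 2 and 708 in replicate 3, at ranks 62, 43 and 30 (45.0 ± 16.1, SD, n = 3). Scores throughout are the authors' values, from column 7 of the deposited lists. How they were normalized is not stated in the labels or notes, so each was also divided by the median score of its list. On that scale the entry stood at 22.6, 24.8 and 27.4 times the median (24.9 ± 2.38, SD, n = 3). All 3 replicates thus placed it far above their typical entry. The summit lay 1045 bp upstream of the distal Mef2 TSS but 171 bp upstream of the TSS of Pdrg1 and 175 bp upstream of a TSS of Pal1, in an intron of the longer Pal1 transcript. Another Pal1 TSS was 354 bp away. The lists do not assign it to any of these genes.

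The second entry was the strongest with a summit inside the gene. It lay on 2R from 9942855 to 9943128, 1779 bp downstream of the middle TSS, in the 5' UTR of Mef2-RG, which is intron for the transcripts of the distal TSS. It is 13370 bp upstream of the proximal TSS. Its pooled score was 771 (rank 363), and replicates 1, 2 and 3 scored it 324, 264 and 188, at ranks 255, 281 and 734 (423 ± 269, SD, n = 3). Relative to the list median these are 13.0, 11.1 and 7.27 (10.5 ± 2.93, SD, n = 3). Replicate 3 was the lowest by both measures. The summits of the 3 replicates fell within 12 bp of the pooled summit. The score of the strongest entry was 2.37 times that of this one in the pooled list and 1.73, 2.23 and 3.76 times in the replicates (2.58 ± 1.06, SD, n = 3), so the order of the pair was the same in all 3 replicates while its size was not.

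The other 4 IDR peaks had moderate ranks. The entry 6378 bp upstream of the proximal TSS, on 2R from 9935778 to 9936207 in an intron of the longer transcripts, had a score of 230 (rank 3163). Replicates 1, 2 and 3 scored it 75.7, 58.6 and 72.5, at ranks 3898, 4232 and 3268 (3799 ± 490, SD, n = 3), with summits no more than 19 bp apart from the pooled one. Its rank varied less between replicates than those of the other 3.

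A double entry lay between the middle and distal TSSs, 4680 and 4954 bp upstream of the middle TSS. Its parts, on 2R from 9949229 to 9949658 and from 9949620 to 9949770, overlap and had scores of 169 (rank 4676) and 213 (rank 3514). Replicate 1 resolved 3 entries here, at ranks 5379, 4458 and 5385, replicate 2 resolved 2, at ranks 5260 and 4821, and replicate 3 only 1, at rank 2117. The single entry of replicate 3 was its third-strongest at Mef2. It overlaps both pooled entries, which are therefore not independent of each other.

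The remaining IDR peak lay outside the gene, 18794 bp downstream of the proximal TSS on 2R from 9910719 to 9910880. Its summit was 72 bp upstream of the TSS of Etf-QO. It had a score of 252 (rank 2762), with replicate scores of 113, 74.5 and 56.4 at ranks 2195, 3074 and 4451 (3240 ± 1137, SD, n = 3). Of the 6 IDR peaks, the 4 inside the Mef2 body were at least 1779 bp from any TSS of a protein-coding gene, and 2 of 6 (33.3%) lay within 500 bp of one, against 49.3% of all IDR peaks. The ranks of the 4 weaker peaks overlapped between replicates, and no order among them held in all 3.

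**Figure D2:**
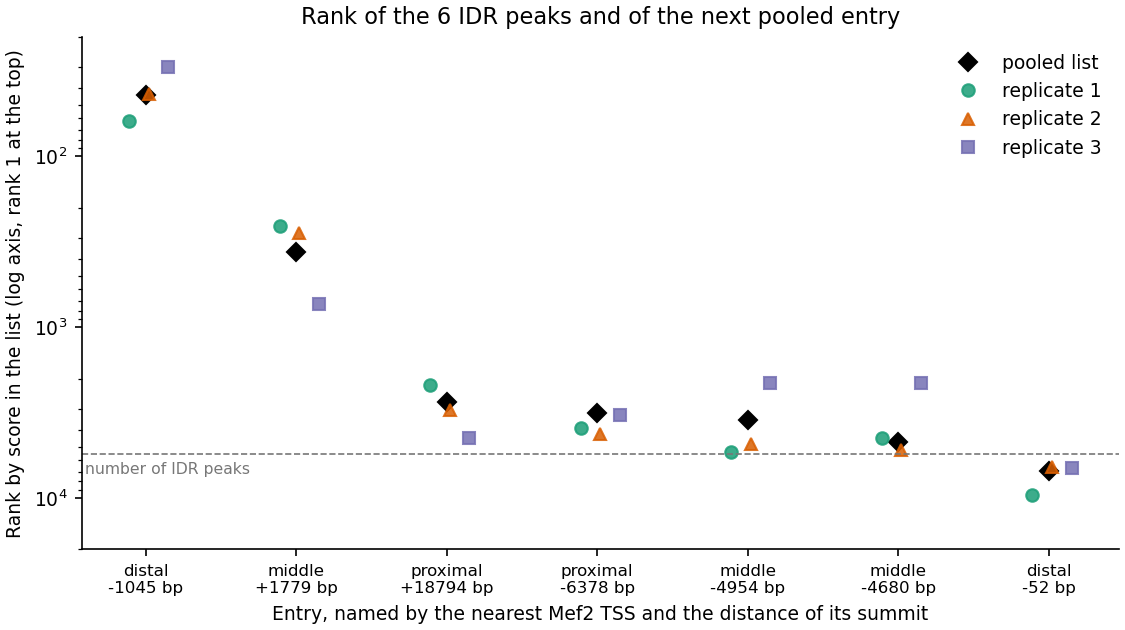
Rank by score (log axis, rank 1 at the top) of the 6 IDR peaks at Mef2 and of the best other pooled entry, in the pooled list (diamonds) and in replicates 1, 2 and 3, each taken from the overlapping entry with the nearest summit; the dashed line is the number of IDR peaks, 5508. The first and second entries stood apart from the rest in every list, and the 4 others overlapped.

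In the pooled list the entries nearest to the TSSs were weak, and none was an IDR peak. At the distal TSS a pooled entry with its summit 52 bp upstream had a score of 120 and rank 6958, the best of the 19 pooled entries at Mef2 that were not IDR peaks, whereas the lowest IDR score is 147. Replicates 2 and 3 ranked it 6567 and 6654. Replicate 1 had a pair of entries there, at ranks 9622 and 5143, the latter with its summit 130 bp downstream of the TSS. That entry is among the 5508 highest-scoring of replicate 1. It ranked above the replicate 1 match of the IDR peak 4954 bp upstream of the middle TSS (5385). Replicate 2 also had a weaker entry at the distal TSS, 220 bp upstream at rank 19262. At the middle TSS the entry with its summit 67 bp downstream had a score of 69.9 (rank 12669), close to the median score of the pooled list, 60.5. At the proximal TSS, from which most transcripts start, the nearest pooled summit was 371 bp upstream with a score of 38.1 and rank 27124, the lowest rank of any at Mef2. Replicate 2 had an entry 128 bp upstream (rank 10615), replicate 1 an entry 466 bp upstream (rank 11408), and replicate 3 none closer than 2219 bp.

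Of the 19 pooled entries outside the IDR list, the median rank was 17580. All but those at ranks 6958 and 7823 ranked between 12669 and 27124 of 30000. The entry 2340 bp upstream of the proximal TSS had a score of 62.5 (rank 14439), and the replicates ranked it 14375, 17742 and 13869. Just inside the downstream edge of the window, 151 bp from it, an intergenic entry 360 bp from a TSS of CG1441 had a score of 109 (rank 7823). The first pooled entries beyond the edges, 11799 bp outside downstream and 465 bp outside upstream, had scores of 103 (rank 8286) and 79.9 (rank 10914).

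The replicates shared the strong entries and differed in the weak ones. An overlapping entry was found in all 3 replicate lists for 15 of 25 pooled entries at Mef2 (60%), against a background of 46.0% of all pooled entries. All 6 IDR peaks were among them, and all 6 were overlapped by 1 of the 5508 highest-scoring entries of every replicate, against 72.5% of all IDR peaks. The IDR list was built by the authors from these same lists. Of the 19 weaker entries, 9 were overlapped in all 3 lists (47.4%, against 34.1% of all pooled entries outside the IDR list) and 1 in none, an entry in a coding exon of FMRFa. The 9 are not independent. Those 67 bp downstream and 206 bp upstream of the middle TSS were overlapped by the same replicate entries. So were those 4222 and 4020 bp downstream of the distal TSS. In the reverse direction, 8 entries of replicate 1, 1 of replicate 2 and 3 of replicate 3 overlapped no pooled entry, and the best of them ranked 9077 in its list. The strongest entry took 30.3%, 39.8% and 48.9% of the summed scores at Mef2 in replicates 1, 2 and 3, and these lists held 29, 22 and 17 entries there.

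**Figure D3:**
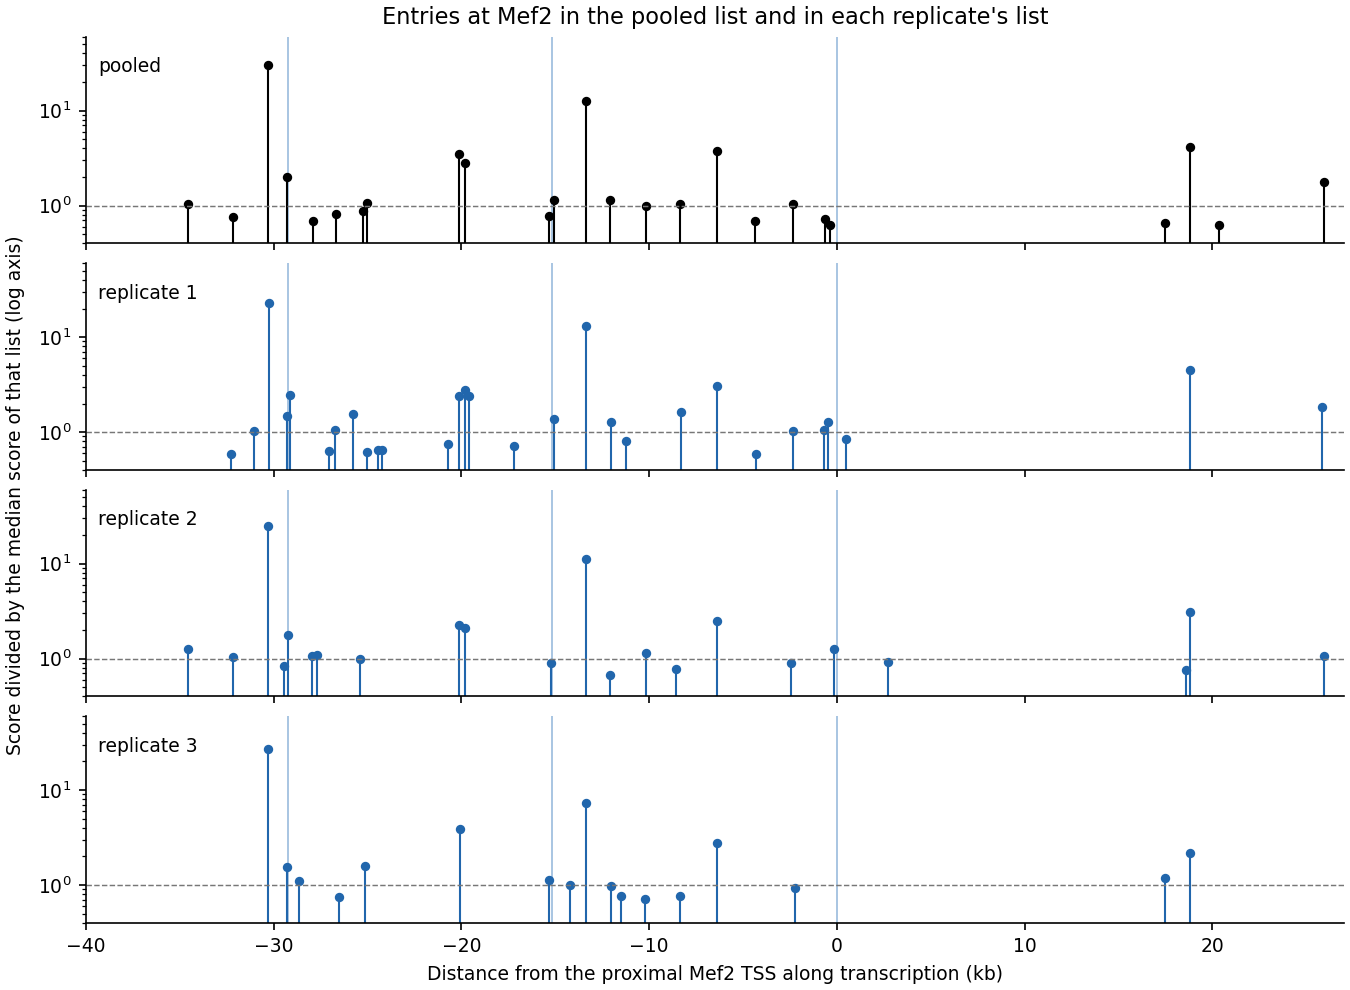
Entries at Mef2 in the pooled list and in each replicate, as the score divided by the median score of that list (log axis, dashed line at the median), by distance from the proximal TSS; vertical lines mark the 3 TSSs. The entry 1045 bp upstream of the distal TSS and the entry downstream of the middle TSS were the first and second in each list, at 22.6 to 27.4 and 7.27 to 13.0 times the median in the replicates.

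Tinman sites were as dense at Mef2 as in the genome, and most lay outside the entries. TCAAGTG and TTAAGTG, searched on both strands, occurred 15 and 11 times in the window, or 3.98 sites per 10 kb against 3.99 over the 6 arms. Pooled entries covered 6 of the 26 sites (23.1%) and 14.4% of the window's length. Over the 6 arms they covered 9.73% of sites and 8.69% of the length. Of the 25 pooled entries, 21 were 430 bp wide, as were 91.6% of all pooled entries, so coverage rests largely on 1 common width. IDR peaks covered 1 of the 26, against 1.55% of the sites of the 6 arms, and 2.89% of the length, against 1.40%. The covered site was a TTAAGTG 101 bp from the summit of the entry downstream of the middle TSS, which also lay inside the entries of replicates 1 and 2 but not the narrower entry of replicate 3. No site lay within 50 bp of any pooled summit. The stretch of the gene body below the proximal TSS held 10 sites, none of them in an entry of any list. Another 2 TTAAGTG sites, 4134 and 4113 bp downstream of the distal TSS, lay where a pair of weak pooled entries overlap (ranks 13849 and 17580), with entries of replicates 1 and 3 over them as well. The shorter AAGTG, which both forms contain, occurred 183 times in the window. Pooled entries covered 26 of the 183 (14.2%, against 9.28% over the 6 arms). IDR peaks covered 9 of the 183, where they covered 1.435% of AAGTG over the arms. Both kinds of entry also cover a larger share of the window's length than of the arms, as given above.

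Paired TCAAGTG sites, with centres no more than 300 bp apart, occurred 3 times at Mef2, and no entry of any list covered a site of these pairs. The pair 5705 and 5878 bp upstream of the proximal TSS, 173 bp apart, is the nearest to a peak. Its sites lay 673 and 500 bp from the summit of the IDR peak 6378 bp upstream and 455 and 282 bp outside the edge of that peak. That peak has the common width of 430 bp, so its edge need not mark where binding ends. In all 3 replicates the summit of this peak was within 19 bp of the pooled one, so each placed it to the same side of the pair. The other pairs lay 4705 and 4448 bp downstream of the proximal TSS and 5436 and 5238 bp downstream of the distal TSS. Over the 6 arms there were 2048 such pairs, of which 16.5% had a site in a pooled entry and 2.20% a site in an IDR peak, so an uncovered pair is the usual case.

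Other sequences were counted in windows of 401 bp centred on the summits. TGATAA, which GATA factors such as Pannier bind, was in 4 of the 6 IDR windows, against 27.8% of all IDR windows, with 3 copies at the Etf-QO promoter (0.781% of IDR windows hold as many). Over all 25 pooled windows it was in 8 (32%), against 24.1%. AGATAA, the other GATA form searched, was in 1 of the 6 IDR windows, against 23.6% of all IDR windows. It was in 5 of the 25 pooled windows (20%), against 21.0%. The window 6378 bp upstream of the proximal TSS held 1 CACATG and 3 CATATG, E-boxes of the kind that Twist binds, and 4 or more of these were found in 0.163% of all IDR windows and 0.237% of pooled ones. The cuts of 4 here and 3 for TGATAA are the highest counts at Mef2, so they were set by the windows they describe. CACATG was in 1 of 6 IDR windows, against 15.4%, and in 3 of 25 pooled windows (12%), against 18.6%. CATATG was in 1 of 6, against 12.3%, and in 3 of 25 (12%), against 12.1%. The weak entry 2340 bp upstream of the proximal TSS held 2 CACATG matches, which overlap each other on opposite strands. Any E-box, CANNTG, was in 5 of 6 IDR windows, and in 85.2% of all IDR windows. The Mef2 site of the MADS-box factors was in 0 of 6, against 21.0%, and the core of the DRE, ATCGATA, in 0 of 6, against 14.5%. A Tinman site of either form was in 1 of 6, against 15.6%. Over the 25 pooled windows, a Tinman site was in 7 (28%, against 16.0%), the Mef2 site in 3 (12%, against 14.6%), and ATCGATA in 3 (12%, against 8.55%). Among the 7 with a Tinman site, the windows 371 and 630 bp upstream of the proximal TSS share 1 TCAAGTG. Those 4222 and 4020 bp downstream of the distal TSS share 2 TTAAGTG, so the 7 are not independent. At the strongest entry the window held 1 TGATAA, 1 E-box and none of the other sequences. The median GC content was 40.6% in the 6 windows and 38.2% in all IDR windows. Of 6 windows, counts like these have wide errors, and a match is not evidence of binding.

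Among the 13945 protein-coding genes, each with its own body and 10 kb to either side, Mef2 was in the upper tail in number of peaks. At least 6 IDR peaks were found at 389 genes (2.79%), where the median gene had 1, and at least 25 pooled entries at 217 (1.56%). Overlapping peaks were counted separately, so the 6 at Mef2 include both parts of the double entry. Another 490 genes had 5 IDR peaks. Its window of 65363 bp is also long, and 369 genes (2.65%) had one at least as long. Per 10 kb, its 0.918 IDR peaks compare with a median of 0.466 over genes, and 29.3% of genes had as many or more. An entry of rank 44 or better was in the window of 237 genes (1.70%). Windows of neighbouring genes overlap and share entries, so genes are not independent in these counts.

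**Figure D4:**
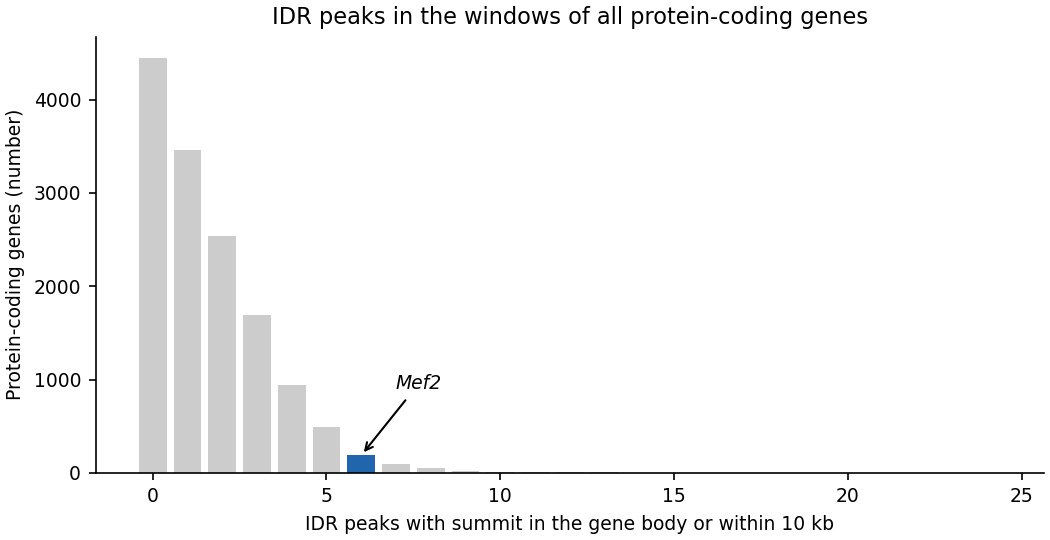
Number of protein-coding genes by the number of IDR peaks in the gene body or within 10 kb, with the class that holds Mef2 (6 peaks, 186 genes) in blue. Most genes had 0 to 3 peaks, and 389 had 6 or more.

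The genes most like Mef2 were sought by the ranks of their best entry in the pooled and replicate lists and the density of pooled entries and IDR peaks, as the Euclidean distance of the log10 values over 9464 genes with an IDR peak and an entry in every list. The 5 nearest were Snx6, CG8349 and CG8292, which share a best entry of pooled rank 40, and l(2)gd1 and Idua, which share one of rank 42. Their distances ran from 0.190 for Snx6 to 0.245 for Idua. The ranks used for Mef2 are those of the entry beside Pdrg1 and Pal1. These genes resemble Mef2 in rank and density, but with windows of 20987 to 23909 bp they hold only 2 or 3 IDR peaks each.

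Genes that act on Mef2, with it or below it were compared by the same window. Of 6 activators, all 6 had an IDR peak within 10 kb, of 6 cofactors and modulators 4 had, and of 16 muscle genes 9 had, together 19 of 28 (67.9%). This is the share of all protein-coding genes, 68.1%. Within 2 kb of the gene the counts were 4, 2 and 4, together 10 of 28 (35.7%), against 40.6% of all genes. The median best rank in the 10 kb windows was 1317 for the activators, 2923 for the cofactors and 3499 for the muscle genes, and 2368 over all genes with an entry.

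Among the activators, the SMAD genes of the Dpp pathway ranked highest. Med, which encodes the common SMAD, had a best entry of rank 61 (replicates 79, 70 and 55) and Mad one of rank 247 (replicates 231, 254 and 298), both also within 2 kb. For tin itself the best rank was 397 (replicates 359, 270 and 718), and any effect of the inserted tin fusion on it was not tested. Those of twi (rank 2236), of the Gli-type zinc finger gene lmd (3199) and of the GATA factor gene pnr (3540) were lower, and the peaks of lmd and pnr lay farther than 2 kb from the gene. The place of Mef2 among them depended on the entry beside Pdrg1 and Pal1. With that entry the rank of Mef2 was 44 (replicates 62, 43 and 30), above all 6 in the pooled list and above Med in each replicate. Without it, the best entry inside the gene ranked 363 (replicates 255, 281 and 734), below Med and Mad in the pooled list and in each replicate. Its order with the best entry of tin did not hold, above it in the pooled list and replicate 1 and below it in replicates 2 and 3. Only at Mef2 was an entry left out in this comparison, and the windows of the 6 activators kept all of theirs.

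Of the cofactor and modulator genes, zfh1, which encodes a zinc finger homeodomain repressor, had the best rank, 225, and 5 IDR peaks. The class IIa deacetylase gene HDAC4 also had 5 (best rank 2435). The wing and muscle selector gene vg (rank 1282) and the zinc finger gene Cf2 (rank 3411) had 2 each, all farther than 2 kb from the gene. At sd, which encodes the partner of Vg, and at Him, which encodes an inhibitor of Mef2 activity, none of the pooled entries was an IDR peak, with best ranks of 6010 and 9059.

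Of the 9 muscle genes with an IDR peak, 5 had none within 2 kb. Tm1 (tropomyosin) had a best rank of 107 within 10 kb but 1634 within 2 kb, Mlp84B (muscle LIM protein) 227 but 25530, and Mlp60A 859 but 11189. Those without an IDR peak within 2 kb were Mlp84B, Mlp60A, betaTub60D (beta-tubulin, rank 1528 within 10 kb), Prm (paramyosin, 3284) and Act57B (actin, 3713). The 4 genes with an IDR peak within 2 kb were Tm1, if, which encodes an alpha integrin (rank 1582, 4 peaks), the titin-like gene sls (1985) and the myosin light chain gene Mlc2 (2962). At Mhc (myosin heavy chain), Tm2, the troponin genes up and wupA, Mlc1, the projectin gene bt and Mp20 there was none within 10 kb, with best ranks from 6727 (wupA) to 22757 (bt).

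**Figure D5:**
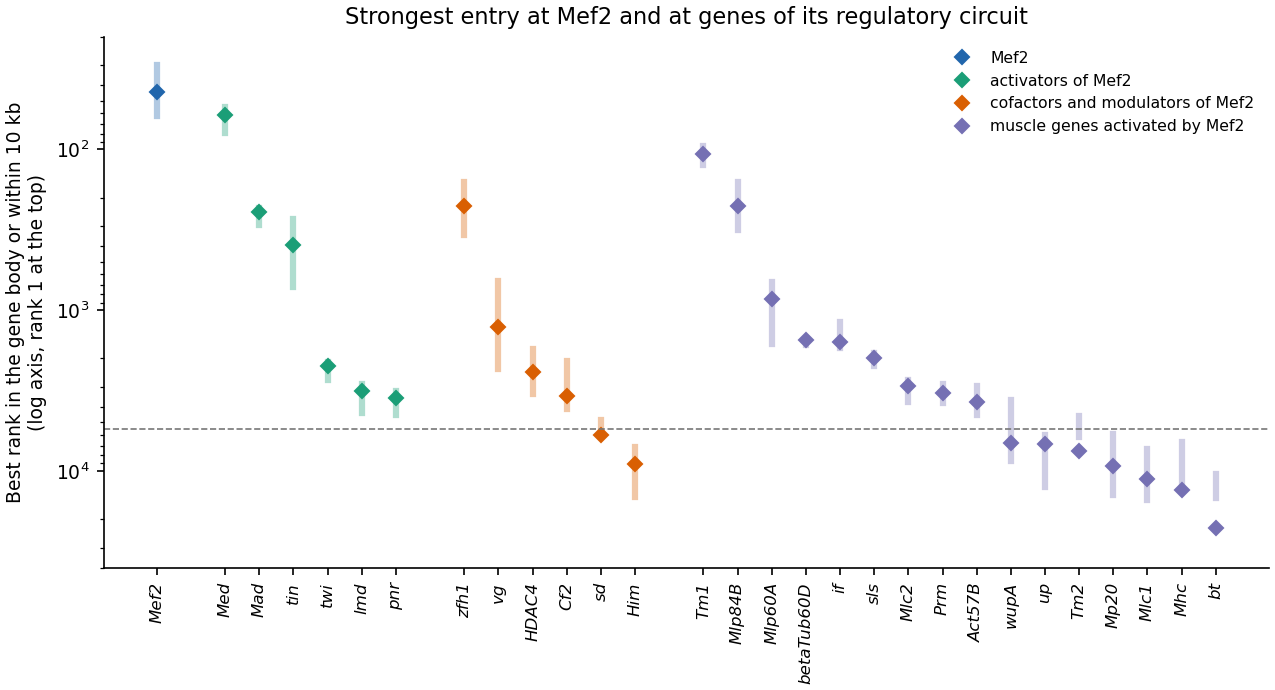
Rank of the best entry in the gene body or within 10 kb (log axis, rank 1 at the top) at Mef2 and at 28 genes of its circuit, as the pooled rank (diamonds) and the range over the replicate lists (bars); the dashed line is the number of IDR peaks, 5508. Besides Mef2, whose rank is that of the entry beside Pdrg1 and Pal1, 19 genes lie above the line and 9 below it.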

How the data were processed

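ChIP-seq was done on 3 replicates of 1 group. The authors deposited narrowPeak lists on dm6: 1 of peaks and background per replicate, 1 from the pooled alignments, each made with the file that also entered the control-normalized signal, and 1 of IDR peaks derived from those lists, per the notes deposited with them. Neither the labels nor the notes name an aligner, a peak caller or the IDR threshold. The score is column 7 as the authors deposited it, and the deposited −log10 q values served as an alternative ranking only, being constant in the IDR list. All 5508 IDR peaks are entries of the pooled list. The lists hold no read counts, so depth is unknown. The dm3 lists were not used.

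Summits were placed on Ensembl release 115 genes (dm6 coordinates), using protein-coding genes of 6 arms, and on RefSeq Release 6 sequence, whose arm lengths hold all entries. Entries matched if they overlapped by at least 1 bp, and values of a match come from the entry with the nearest summit. Motifs were searched on both strands, and AAGTG lies within each Tinman site. Python 3.11.15, NumPy 2.4.6, SciPy 1.17.1 and Matplotlib 3.10.9 were used, and the functions were checked on simulated data. No hypothesis test was run: with 1 group there is no contrast between conditions, and entries compared within a list were chosen by their scores. Genes named are those at the window's entries, 3 lists of Mef2 regulators, cofactors and muscle genes, and the 5 genes most like Mef2. The window, lists and motifs were chosen with earlier results of these data known. Alternatives covered the window, matching, motif, ranking and each replicate left out.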

Additional observations from a re-analysis of the deposited data

How the results depend on the processing

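Of 37 alternative settings over 7 results, 26 kept the result within 1.5 times, within 1 SD of the replicates or within its interval, and 11 moved it. With the gene body alone the best rank became 363, since the strongest entry lies outside the gene. Ranked by the deposited −log10 q value it became 2785, because 5569 pooled entries tie at the highest value. In the higher-scoring part of the IDR list, 2754 peaks, 2 of the 6 remained, 8% of the pooled entries at Mef2. Entries matched in all 3 replicates fell from 15 to 7 with summits within 100 bp, 8 with a reciprocal overlap of at least 50%, and 6 with the 5508 top entries of each list. Sites inside pooled entries fell from 6 to 2 with TCAAGTG alone and 0 within 50 bp of a summit, and rose to 26 with AAGTG alone. With windows of 2 kb, 10 of the 28 circuit genes had an IDR peak in place of 19. Without each replicate in turn, the mean rank of the strongest entry was 36.5 to 52.5. The IDR and pooled lists could not be rebuilt without a replicate, so the 6 IDR peaks and their share of 24.0% could not move, and matched entries could not fall (16 to 17); these settings are counted among the 26 and show nothing about stability. No paired analysis was possible because there is no second group whose replicates could be paired. The lists hold no counts, so no floor could be set for stretches without an entry, and each list ends at a fixed length or score.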
